A study of Mus musculus with 12 samples.

Results

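The lysosomal enzyme and membrane genes described here are 39 genes picked by symbol from a table of 28987 genes. They were measured by RNA-seq in sorted mouse cells that the study describes as neutrophils. All 39 were in the table, and all 39 passed the filter of at least 1 TPM (transcripts scaled to a fixed library total and to transcript length) in at least 3 of the 12 libraries. The libraries came from mice of the FVB strain that had each received 2 mL of thioglycollate intraperitoneally, a sterile irritant that draws neutrophils into the peritoneal cavity. Cells were taken from the bone marrow (BM) and the peritoneum (PT) of wild-type (WT) and MRP8-Bcl2 animals. This gave 4 groups of 3 libraries, named by site and genotype as BM WT, BM Bcl2, PT WT and PT Bcl2. The MRP8-Bcl2 transgene places human BCL2, an inhibitor of apoptosis, under regulatory regions of human MRP8, a gene expressed in the myeloid lineage. All libraries used here came from thioglycollate-treated mice, so the BM libraries are marrow of inflamed mice and not of resting mice. The labels give collection at 6 h for every library whereas the methods of the study name other times, and the labels give macrophages as the source whereas the design text gives neutrophils.

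Lysosomes are acidic organelles in which hydrolases break down proteins, sugars, lipids and sulfated polymers. The vacuolar proton pump (V-ATPase) acidifies them, the LAMP proteins line their membrane, and transporters and channels move products and ions out. The transcription factor TFEB is known to raise many lysosomal genes together through a short promoter element that contains the E-box CACGTG. In neutrophils, lysosomal enzymes share the cell with the azurophil granules, which are themselves related to lysosomes and are filled early in maturation in the marrow.

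Cell identity and libraries were checked before the members were compared. The summed TPM of 9 neutrophil markers lay between 77034 and 351331 in the BM libraries and between 15201 and 70169 in the PT libraries. Ly6g, S100a8 and S100a9 of this list were called lower in PT WT, at log2 fold changes of -7.25, -3.62 and -3.73 in limma. In MRP8-Bcl2 S100a8 and S100a9 were called lower and Csf3r higher, and the calls of S100a8 and S100a9 were lost without library 9. The 14 macrophage markers summed to between 17.9 and 170 TPM in BM and between 59.8 and 175 TPM in PT. In WT alone the sums were 17.9 to 117 TPM in BM and 80.0 to 142 TPM in PT. The peritoneal macrophage factor Gata6 was listed at 0 in all libraries of 3 groups. In the fit reported, no macrophage marker was called in the comparisons of PT with BM. The median log2 fold change of the 11 tested was 1.16 in WT and 0.38 in MRP8-Bcl2. Without library 9, 1 was called higher in WT. In MRP8-Bcl2, 3 were called higher after median centring of the libraries and 2 with quantile normalization. With genes of long A or T runs left out, 0 of 12 were called there. The part of macrophages in the results below was not tested. The 9 immature neutrophil markers summed to between 16779 and 45241 TPM in the BM libraries and to between 346 and 1173 TPM in the PT libraries, and their part in the results below was not tested. Other cell types moved with the site as well. The 6 B cell markers summed to between 253 and 1579 TPM in BM and between 1157 and 7051 TPM in PT, with Ighm and Igkc called higher in PT Bcl2 and Ighm alone of these without library 9. The 6 mast cell markers reached 28.8 TPM at most in BM WT and 25.8 to 636 TPM in PT WT, where Cma1 was called higher and library 12 was the highest. The 6 monocyte markers summed to between 456 and 2229 TPM in BM and between 53.0 and 133 TPM in PT, with Ly6c2 called lower in both genotypes. The sums of 5 eosinophil and 4 erythroid markers were at least 22.1 and 33.3 TPM in BM and at most 14.1 and 8.18 TPM in PT. The 6 T cell markers lay between 7.27 and 177 TPM in all libraries. The part of these cells in the results below was not tested. One library labelled PT Bcl2 (library 9) held 0.695 TPM on the mouse Bcl2 entry of the table, within the 0.219 to 2.37 TPM of the WT libraries, whereas the other MRP8-Bcl2 libraries held 58.6 to 333 TPM. The calls, counts and shares of PT Bcl2, and the log2 fold changes of the members described singly, are therefore also given without library 9. The PT Bcl2 libraries listed 9735, 10854 and 12138 genes above 0 and the PT WT libraries 13713 to 14305, and the part of this gap in the calls of PT Bcl2 was not tested. In bulk RNA, fewer cells of a type and less RNA per cell cannot be told apart.

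The level of the 39 genes spanned a wide range. By the median over the 12 libraries, which pools BM and PT, the most abundant were the aspartic protease gene Ctsd at 332 TPM, the V-ATPase subunit gene Atp6v1a at 246 TPM, the saposin precursor gene Psap at 219 TPM and the membrane glycoprotein gene Lamp2 at 214 TPM. The order differed between groups. Ctsd had the highest mean in BM WT (272 TPM), PT WT (931 TPM) and PT Bcl2 (1560 TPM), whereas in BM Bcl2 Atp6v1a (253 TPM) and Psap (252 TPM) stood above Ctsd (221 TPM). The least abundant were the genes of the sulfatases sulfamidase (Sgsh, 0.865 TPM) and arylsulfatase A (Arsa, 0.988 TPM) and of beta-galactosidase (Glb1, 1.42 TPM). TPM is corrected for transcript length, so these levels can be set beside each other.

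Promoters are described first. The E-box is a known element of lysosomal genes, so its share among these members is not independent of how they were chosen. Of the 39 genes, 33 had a promoter window in the RefSeq table (assembly GRCm38.p6), covering 250 bases before and 50 bases after each annotated start. Ctsb, Ctsh, Asah1, Npc1, Atp6v1b2 and Atp6v1h had no window. CACGTG, which reads the same on both strands, was present in 14 of the 33 genes (42.4%), against 8.09% of 27025 genes in the promoter table and 11.5% of the 9139 tested genes that had a window. The longer form TCACGTG, searched on both strands and by its letters always overlapping CACGTG, was present in 13 (39.4%) against 4.29% and 6.95%. The member that held CACGTG without TCACGTG was the cathepsin L gene Ctsl.

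Lamp1 held the most copies, 4 in the 250 bases before its start, and this stretch is shown whole with each CACGTG in capitals (chr8:13158911-13159160, plus strand).
Lamp1: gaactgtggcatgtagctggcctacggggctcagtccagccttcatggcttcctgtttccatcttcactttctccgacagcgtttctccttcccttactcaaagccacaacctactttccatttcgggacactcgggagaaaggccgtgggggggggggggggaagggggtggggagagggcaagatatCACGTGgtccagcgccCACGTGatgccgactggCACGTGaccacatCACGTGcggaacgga

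For 8 further members the 26 bases around the copy nearest to the start are shown, in the direction of the gene and with CACGTG in capitals. Gla, Ctsd and Glb1 are printed because their transcripts were called below, Ctsl because it lacks the flanking T, and Gaa, Mcoln1, Atp6v1a and Lgmn because they carry the same element and were not called in the fit reported here.
Gla (chrX:134601184-134601209, minus strand): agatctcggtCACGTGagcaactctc
Ctsd (chr7:142387910-142387935, minus strand): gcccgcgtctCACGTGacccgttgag
Glb1 (chr9:114401020-114401045, plus strand): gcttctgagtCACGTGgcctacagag
Ctsl (chr13:64370741-64370766, minus strand): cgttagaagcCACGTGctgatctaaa
Gaa (chr11:119267813-119267838, plus strand): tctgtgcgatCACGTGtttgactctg
Mcoln1 (chr8:3500464-3500489, plus strand): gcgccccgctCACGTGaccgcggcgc
Atp6v1a (chr16:44139375-44139400, minus strand): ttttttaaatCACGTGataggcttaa
Lgmn (chr12:102439126-102439151, minus strand): gaatgtctgtCACGTGgtccatttta

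The copy shown begins 194 bases before the annotated start in Gla, 98 in Ctsd, 48 in Glb1, 236 in Ctsl, 140 in Gaa, 45 in Mcoln1, 131 in Atp6v1a and 49 in Lgmn. These starts are those of the RefSeq windows. By the GENCODE gene positions, the copies shown for Ctsd, Ctsl, Mcoln1, Atp6v1a and Lgmn lie inside the gene. Lgmn has another window, at a start further upstream, that holds no CACGTG. The other members with CACGTG were Ctsa, Cln3, Atp6v0d1, Sgsh and Arsa. A match of letters is a description and not a measured binding site.

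The first question was which lysosomal transcripts differed between the cells sorted from the peritoneum and from the marrow of WT mice. The alpha-galactosidase gene Gla and the acid lipase gene Lipa were higher in PT, and the arylsulfatase B gene Arsb was lower. Thus 2 of 39 members were called higher and 1 lower, where called means a Benjamini-Hochberg adjusted p below 0.05 over all 13456 tested genes and a change of at least 2-fold in limma. Over all tested genes 1.59% were called higher and 1.22% lower. The median log2 fold change of the members was 0.61, against 0.22 for all tested genes, and 26 of 39 members lay above that value. The other 36 members did not pass the test, with standard errors of 0.45 to 1.35 on the log2 scale over the 39 genes.

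In MRP8-Bcl2 mice the same comparison called Gla, Lipa, Ctsd and Tfeb higher in PT and Arsb, Gusb, Ctsh, Glb1 and Atp6v1h lower. These were 4 and 5 of the 39 members, where 2.31% of all tested genes were called higher and 19.1% lower. Without library 9 the counts were 5 higher, the cholesterol exporter gene Npc1 being added, and 3 lower, Gusb and Glb1 being lost, where 2.29% and 16% of all tested genes were called. On the log2 scale the median change was 0.03 for the members and -1.02 for all tested genes, so that 30 of 39 members lay above the median of all genes. The split of these calls turned on the scaling of the libraries. After median centring of the libraries, 14 members were called higher and 0 lower, with quantile normalization 7 and 1, and with genes that carry long A or T runs left out 8 and 2.

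**Figure D1:**
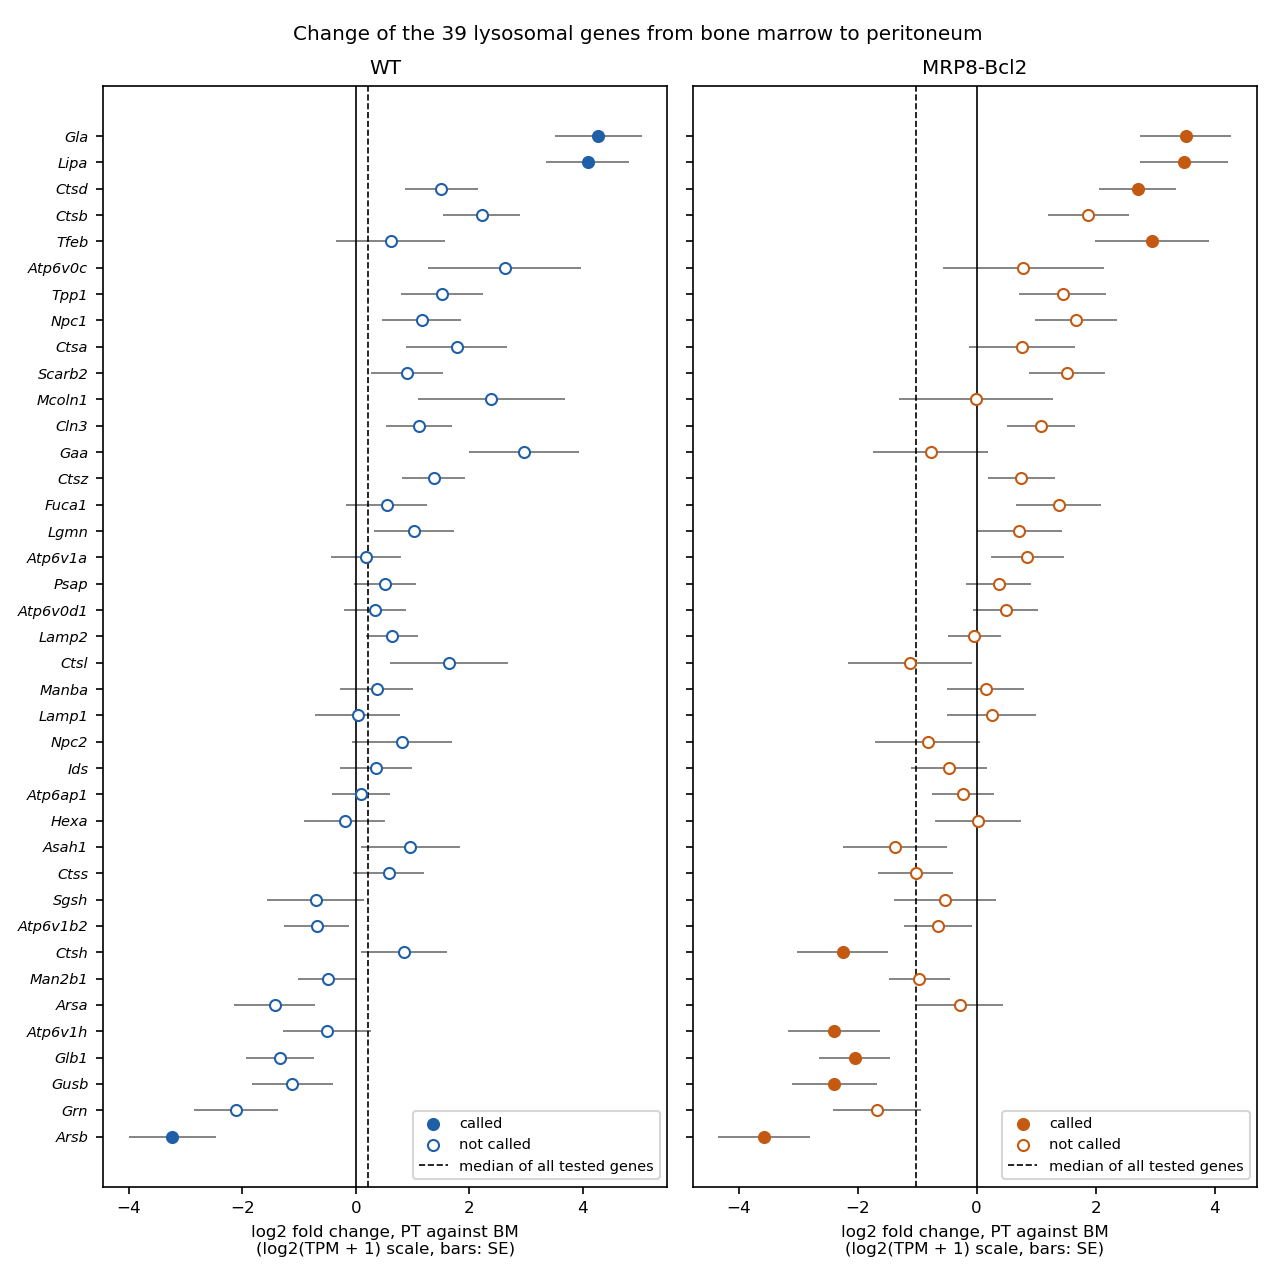
Log2 fold change of PT against BM for each of the 39 genes in WT (left) and MRP8-Bcl2 (right) on the log2(TPM + 1) scale; bars are standard errors, filled points were called, and the dashed line is the median of all tested genes (0.22 and -1.02). Gla and Lipa lie at the top in both genotypes and Arsb at the bottom, and in MRP8-Bcl2 30 of 39 points lie to the right of the dashed line.

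Glycosidases remove sugars from glycoproteins and glycolipids, and Gla codes for alpha-galactosidase A, which acts on glycolipids with terminal galactose. Gla (ENSMUSG00000031266, chrX:134588149-134601125 in GRCm38) measured 3.47, 0.758 and 6.08 TPM in BM WT and 82.0, 56.6 and 83.7 TPM in PT WT. It measured 3.35, 3.24 and 13 TPM in BM Bcl2 and 186, 51.0 and 38.7 TPM in PT Bcl2. All PT libraries of both genotypes lay above all BM libraries, and the lowest of the PT values was the one of library 9. The log2 fold change was 4.28 ± 0.76 (SE, 3 libraries a group) in WT, 19.4-fold with an adjusted p of 0.00872 in limma. In MRP8-Bcl2 it was 3.52 ± 0.76, 11.4-fold with an adjusted p of 0.00704 in limma, and 3.95 with an adjusted p of 0.00928 in limma without library 9. The WT call rested in part on library 10, without which the log2 fold change was 4.19 and the adjusted p in limma 0.0512.

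Gla also moved up within each library. Among the tested genes it stood at the 20.8th to 58.8th percentile of TPM in the BM libraries of both genotypes and at the 89.4th to 94.7th percentile in the PT libraries. It made up 0.0360% to 0.387% of the summed TPM of the 39 genes in BM and 1.30% to 3.27% in PT.

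The other glycosidase genes did not share this pattern. Gusb, the gene of beta-glucuronidase, measured 19.6, 15.2 and 8.25 TPM in BM WT and 6.10, 8.70 and 3.34 TPM in PT WT, groups that overlapped. It measured 14.9, 27.1 and 50.5 TPM in BM Bcl2 and 9.26, 3.77 and 2.24 TPM in PT Bcl2, where every PT library was below every BM library. Its log2 fold change was -2.40 ± 0.71 in MRP8-Bcl2 (adjusted p = 0.0290 in limma) and -1.12 ± 0.71 in WT (adjusted p = 0.462). The call in MRP8-Bcl2 was lost without library 9, at -2.03 with an adjusted p of 0.0839 in limma, and median centring gave a log2 fold change of -0.81.

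Glb1, the gene of beta-galactosidase, was listed at 0 in all 3 PT Bcl2 libraries, so no fold is given. It measured 3.73, 3.59 and 2.24 TPM in BM Bcl2, 3.83, 1.54 and 5.60 TPM in BM WT, and 1.30, 0.156 and 0.901 TPM in PT WT. The WT levels were low, and each PT WT library was below each BM WT library. Lamtor2 and Lamtor4, genes of a lysosomal scaffold, were also listed at 0 in the 3 PT Bcl2 libraries, and a listed 0 is not read here as a measured low level. The MRP8-Bcl2 difference was called in limma with an adjusted p of 0.0264, which became 0.0584 without library 9 and 0.665 after median centring.

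Gaa, which codes for the glycogen-degrading acid alpha-glucosidase, measured 2.30, 0.998 and 1.69 TPM in BM WT and 33.1, 18.8 and 11.6 TPM in PT WT. In MRP8-Bcl2 it measured 15.1, 13.9 and 10.9 TPM in BM and 57.2, 2.13 and 2.16 TPM in PT. The WT groups were apart, whereas library 7 stood above and the other PT Bcl2 libraries below all BM Bcl2 libraries. The log2 fold changes were 2.97 ± 0.97 in WT (adjusted p = 0.122 in limma) and -0.77 ± 0.97 in MRP8-Bcl2 (adjusted p = 0.586), the latter -0.08 without library 9. Gaa was called in WT when genes with long A or T runs were left out. The other 4 glycosidase genes, Hexa, Man2b1, Manba and Fuca1, ranged from -0.50 to 0.55 in WT and from -0.96 to 1.38 in MRP8-Bcl2 on the log2 scale. None of them was called in the fit reported. Fuca1 was called higher in MRP8-Bcl2 after median centring and with genes of long A or T runs left out.

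**Figure D2:**
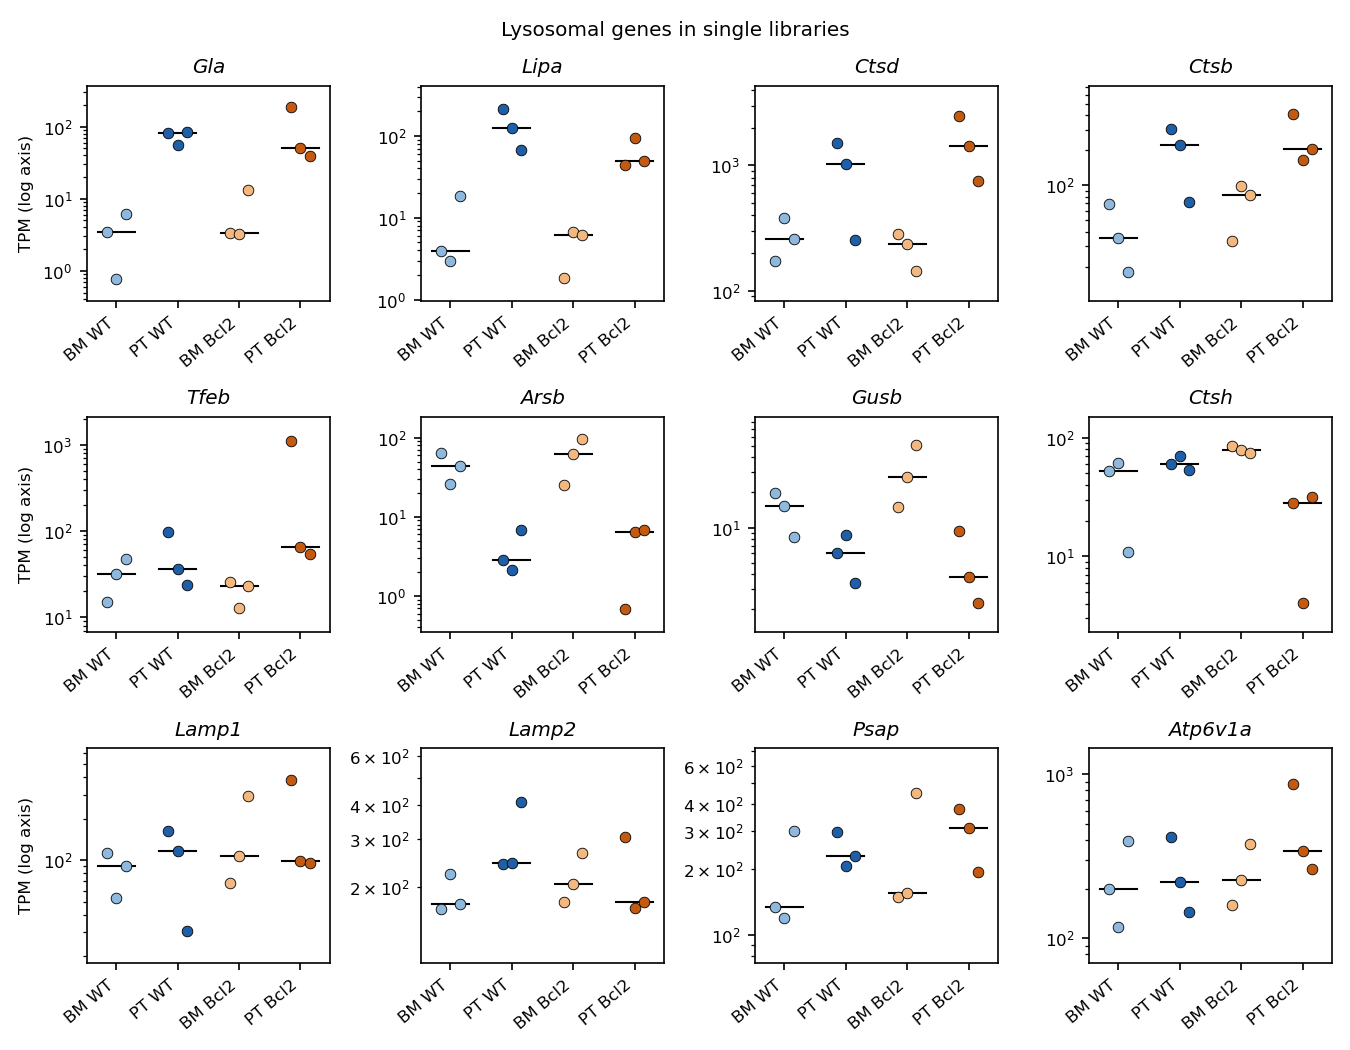
TPM on a log axis of 12 lysosomal genes in the 3 libraries of each group; points are libraries and black lines are group medians. Gla and Lipa are higher in each PT library than in each BM library and Arsb lower, whereas Lamp1, Psap and Atp6v1a overlap between PT and BM in both genotypes.

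Among the genes for lipid handling, Lipa codes for lysosomal acid lipase, which frees cholesterol and fatty acids from cholesteryl esters and triglycerides. Lipa (ENSMUSG00000024781, chr19:34492318-34527474) measured 3.93, 2.98 and 18.3 TPM in BM WT and 214, 126 and 67.1 TPM in PT WT. It measured 1.84, 6.63 and 6.20 TPM in BM Bcl2 and 44.4, 95.2 and 49.3 TPM in PT Bcl2. As for Gla, no PT library overlapped with a BM library. The log2 fold change was 4.09 ± 0.73 in WT (17.0-fold, adjusted p = 0.00872 in limma) and 3.49 ± 0.73 in MRP8-Bcl2 (11.2-fold, adjusted p = 0.00617). Without library 9 it was 3.62 in MRP8-Bcl2 with an adjusted p of 0.0134 in limma. The WT call was lost without library 10, at 3.68 with an adjusted p of 0.0585 in limma, and without library 4, at 3.81 with an adjusted p of 0.0504.

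The cholesterol exporter gene Npc1 measured 12.7, 16.0 and 10.4 TPM in BM WT and 32.1, 27.7 and 30.2 TPM in PT WT. In MRP8-Bcl2 it measured 9.996, 10.4 and 22.5 TPM in BM and 98.8, 63.2 and 13.7 TPM in PT, where library 9 fell among the BM values. The WT groups did not overlap, and the log2 fold change of 1.16 ± 0.69 had an adjusted p of 0.430 in limma. In MRP8-Bcl2 the log2 fold change was 1.67 ± 0.69 (adjusted p = 0.0960 in limma), and without library 9 it was 2.48 and called (adjusted p = 0.0185). No other fit that dropped a single library called Npc1. It was also called higher after median centring (3.26, adjusted p = 0.0136 in limma), with quantile normalization (2.51, adjusted p = 0.0192) and with genes of long A or T runs left out (2.42, adjusted p = 0.0294).

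Asah1, the gene of acid ceramidase, measured 22.6, 27.0 and 0.902 TPM in BM WT and 13.2, 19.3 and 31.4 TPM in PT WT. In MRP8-Bcl2 it measured 24.3, 20.3 and 34.8 TPM in BM and 7.25, 9.58 and 11.6 TPM in PT. The MRP8-Bcl2 groups were apart, with a log2 fold change of -1.38 ± 0.87 and an adjusted p of 0.265 in limma, and -1.52 without library 9 (adjusted p = 0.295). Npc2, whose product hands cholesterol to NPC1, and Psap were not called, with values of 0.82 and 0.52 in WT and of -0.82 and 0.37 in MRP8-Bcl2. The MRP8-Bcl2 values without library 9 were -0.01 for Npc2 and 0.64 for Psap.

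The proteases included the most abundant of the 39 genes. Ctsd codes for the aspartic protease cathepsin D (ENSMUSG00000007891, chr7:142375911-142388038) and measured 173, 382 and 260.2 TPM in BM WT and 1511, 1026 and 256 TPM in PT WT. It measured 282, 237 and 144 TPM in BM Bcl2 and 2486, 1441 and 754 TPM in PT Bcl2. Library 12 lay within the BM range in WT, whereas the MRP8-Bcl2 groups were apart. The log2 fold change was 2.71 ± 0.65 in MRP8-Bcl2 (6.53-fold, adjusted p = 0.0110 in limma) and 1.51 ± 0.65 in WT (adjusted p = 0.256). Without library 9 it was 3.15 in MRP8-Bcl2 (adjusted p = 0.0107 in limma), and without library 3 it was 2.43 and not called (adjusted p = 0.0526). The difference between the genotypes was 1.20 ± 0.91 with an adjusted p of 0.486 in limma, and 1.64 without library 9 (adjusted p = 0.355). A difference in the response of Ctsd was thus not shown.

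Ctsb codes for the cysteine protease cathepsin B. It measured 69.6, 35.4 and 17.9 TPM in BM WT and 304, 221 and 71.5 TPM in PT WT, and in MRP8-Bcl2 33.2, 97.8 and 83.4 TPM in BM and 405, 166 and 206 TPM in PT. The groups did not overlap in either genotype. The log2 fold changes were 2.22 ± 0.68 in WT (adjusted p = 0.101 in limma) and 1.88 ± 0.68 in MRP8-Bcl2 (adjusted p = 0.0622), so Ctsb did not pass the test in either. In MRP8-Bcl2 the value without library 9 was 1.98 (adjusted p = 0.0902 in limma), and Ctsb passed after median centring, with genes of long A or T runs left out, and without library 12 of the WT group.

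Ctsh, the gene of the aminopeptidase cathepsin H, went the other way in MRP8-Bcl2. It measured 85.6, 79.1 and 74.2 TPM in BM Bcl2 and 28.2, 4.05 and 32.0 TPM in PT Bcl2, whereas WT had 52.9, 60.9 and 10.9 TPM in BM and 59.8, 70.3 and 53.1 TPM in PT. The log2 fold change was -2.25 ± 0.76 in MRP8-Bcl2 (adjusted p = 0.0477 in limma) and 0.85 ± 0.76 in WT (adjusted p = 0.628). Without library 9 it was -2.73 (adjusted p = 0.0369 in limma). Leaving out single libraries ended the call in 9 of 12 cases, and median centring gave a log2 fold change of -0.66.

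The other 6 protease genes, Ctsa, Ctsl, Ctss, Ctsz, Tpp1 and Lgmn, ranged from 0.58 to 1.78 in WT and from -1.11 to 1.44 in MRP8-Bcl2 on the log2 scale. They were not called in the fit reported, but Ctsz and Lgmn were called higher in MRP8-Bcl2 after median centring. Tpp1, a tripeptidyl peptidase gene, measured 11.5, 15.0 and 27.8 TPM in BM Bcl2 and 91.5, 38.1 and 30.9 TPM in PT Bcl2. These groups were apart, with a log2 fold change of 1.44 ± 0.72 and an adjusted p of 0.159 in limma, and 1.75 without library 9 (adjusted p = 0.143). Tpp1 was called higher after median centring (3.03, adjusted p = 0.0176 in limma) and with quantile normalization (2.25, adjusted p = 0.0457).

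Sulfatases remove sulfate groups from glycosaminoglycans and sulfolipids, and the gene with the strongest fall among the 39 in both genotypes was of this group. Arsb (ENSMUSG00000042082, chr13:93771630-93943016) measured 63.6, 26.1 and 44.3 TPM in BM WT and 2.88, 2.11 and 6.78 TPM in PT WT. It measured 25.6, 62.7 and 95.2 TPM in BM Bcl2 and 0.678, 6.38 and 6.80 TPM in PT Bcl2. Every PT library was below every BM library. The log2 fold change was -3.24 ± 0.77 in WT (9.46-fold lower, adjusted p = 0.0357 in limma) and -3.57 ± 0.77 in MRP8-Bcl2 (11.9-fold lower, adjusted p = 0.00666). Without library 9 it was -3.96 in MRP8-Bcl2 with an adjusted p of 0.00938 in limma. Leaving out single libraries ended the WT call in 6 of 12 cases, with log2 fold changes from -3.63 to -2.95 and adjusted p of up to 0.125 in limma, whereas the MRP8-Bcl2 call held in all 12. Median centring gave an MRP8-Bcl2 log2 fold change of -1.98 (adjusted p = 0.0621 in limma).

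The other sulfatase genes were weakly expressed. Arsa measured 1.80, 3.15 and 15.8 TPM in BM WT and 1.72, 0.309 and 1.79 TPM in PT WT, with no value above 0.994 TPM in MRP8-Bcl2 libraries and 3 of these listed at 0. Sgsh lay between 0 and 11.4 TPM and Ids, the iduronate sulfatase gene, between 5.06 and 26.4 TPM over the 12 libraries. None of them was called in any comparison.

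Of the membrane proteins none of 5 was called. Lamp1 ranged from 53.4 to 112 TPM in BM WT, from 30.5 to 163 TPM in PT WT, from 68.5 to 295 TPM in BM Bcl2 and from 95.8 to 384 TPM in PT Bcl2, so PT and BM overlapped in both genotypes. Its log2 fold changes were 0.03 ± 0.75 in WT and 0.25 ± 0.75 in MRP8-Bcl2. Lamp2 changed by 0.64 ± 0.45 and -0.04 ± 0.45. The MRP8-Bcl2 values of Lamp1 and Lamp2 without library 9 were 0.59 and 0.08. Lamp1, with its 4 promoter E-boxes, was thus among the members with the smallest measured difference in WT.

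Scarb2, which codes for the receptor that carries glucocerebrosidase to lysosomes, measured 14.3, 18.0 and 25.8 TPM in BM Bcl2 and 82.3, 40.7 and 52.4 TPM in PT Bcl2, groups that were apart. In WT it measured 11.2, 13.1 and 37.5 TPM in BM and 48.9, 45.6 and 17.8 TPM in PT, groups that overlapped. The log2 fold changes were 1.52 ± 0.63 in MRP8-Bcl2 (adjusted p = 0.0962 in limma) and 0.91 ± 0.63 in WT (adjusted p = 0.513). The MRP8-Bcl2 value without library 9 was 1.57 (adjusted p = 0.144 in limma). Scarb2 was called higher in MRP8-Bcl2 after median centring (3.11, adjusted p = 0.0177 in limma), with quantile normalization (2.30, adjusted p = 0.0434) and with genes of long A or T runs left out (2.28, adjusted p = 0.0414).

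Cln3, a gene mutated in juvenile Batten disease, measured 56.9, 132 and 75.9 TPM in BM WT and 237, 129 and 193 TPM in PT WT. In MRP8-Bcl2 it measured 189, 69.0 and 45.7 TPM in BM and 235, 135 and 183 TPM in PT. The groups overlapped in both genotypes, and the log2 fold changes of 1.12 ± 0.58 and 1.08 ± 0.58 were not called. The latter was 1.07 without library 9, and after median centring it was 2.67 and called (adjusted p = 0.0231 in limma). Mcoln1, the gene of the lysosomal cation channel mucolipin 1, measured 18.2, 6.70 and 0.148 TPM in BM WT and 44.2, 22.4 and 22.0 TPM in PT WT. In MRP8-Bcl2 it was listed at 0 in 1 BM library and measured 22.7 and 35.9 TPM in the others, against 17.4, 1.65 and 16.5 TPM in PT. Mcoln1 had a standard error of 1.29, and neither difference was called, also without library 9 (-0.45 in MRP8-Bcl2).

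Grn codes for progranulin, a secreted protein that is also processed in lysosomes. It measured 51.1, 43.1 and 275 TPM in BM WT and 41.4, 13.2 and 11.8 TPM in PT WT, and in MRP8-Bcl2 53.2, 126 and 137 TPM in BM and 28.1, 42.5 and 22.3 TPM in PT. The groups did not overlap in either genotype. The log2 fold changes of -2.12 ± 0.74 and -1.67 ± 0.74 did not pass the test, with adjusted p of 0.153 and 0.116 in limma. Leaving out library 9 gave -1.47 in MRP8-Bcl2 with an adjusted p of 0.232 in limma.

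The V-ATPase consists of a cytosolic V1 sector that burns ATP and a membrane V0 sector that carries protons. Of the 6 subunit genes, Atp6v1h of the V1 sector was called, lower in PT Bcl2. It measured 10.4, 9.94 and 13.9 TPM in BM Bcl2, was listed at 0 in library 7, and measured 1.18 and 4.83 TPM in the other PT Bcl2 libraries. WT had 13.2, 8.34 and 6.39 TPM in BM and 2.80, 8.75 and 8.22 TPM in PT, which overlapped. The MRP8-Bcl2 log2 fold change was -2.40 ± 0.77 (adjusted p = 0.0392 in limma) and -3.06 without library 9 (adjusted p = 0.0203), and it was -1.79 and not called without library 7 (adjusted p = 0.117). Leaving out single libraries ended the call in 7 of 12 cases. After median centring it was -0.81 (adjusted p = 0.424 in limma).

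Atp6v0c, the gene of the proton-carrying ring, measured 491 TPM in library 10 of PT WT and 0.221 to 31.6 TPM in the other 11 libraries. Its WT log2 fold change of 2.63 ± 1.35 had an adjusted p of 0.348 in limma. Atp6v1b2 measured 70.0, 65.9 and 151 TPM in BM WT and 66.3, 92.6 and 26.5 TPM in PT WT, and in MRP8-Bcl2 82.6, 79.0 and 102 TPM in BM and 52.4, 77.1 and 42.0 TPM in PT. Its log2 fold changes of -0.69 ± 0.57 and -0.65 ± 0.57 were not called, although the MRP8-Bcl2 groups were apart, and the latter was -0.45 without library 9. Atp6v1a, Atp6v0d1 and Atp6ap1 lay between 0.09 and 0.34 in WT and between -0.23 and 0.85 in MRP8-Bcl2. They were not called in the fit reported, but Atp6v1a and Atp6v0d1 were called higher in MRP8-Bcl2 after median centring.

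Tfeb (ENSMUSG00000023990, chr17:47737030-47792419), the gene of the transcription factor that the E-box element is known for, measured 15.2, 31.4 and 46.8 TPM in BM WT and 97.9, 35.9 and 23.7 TPM in PT WT. It measured 25.9, 12.7 and 23.0 TPM in BM Bcl2 and 1115, 64.6 and 54.0 TPM in PT Bcl2. The WT groups overlapped and the MRP8-Bcl2 groups were apart, with library 7 far above every other library. The log2 fold change was 2.94 ± 0.96 in MRP8-Bcl2 (7.69-fold, adjusted p = 0.0410 in limma) and 0.61 ± 0.96 in WT (adjusted p = 0.801). Without library 7 it was 1.54 and not called (adjusted p = 0.135 in limma), and without library 9 it was 3.71 (adjusted p = 0.0238). Leaving out single libraries ended the call in 6 of 12 cases, and it was also lost without a filter (adjusted p = 0.0849 in limma), in a fit of only the groups compared (0.121) and without the trend (0.0505). The difference between genotypes of 2.33 ± 1.35 had an adjusted p of 0.375 in limma, and without library 9 it was 3.09 (adjusted p = 0.259).

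Counts of groups that did not overlap gave a view of single libraries. In TPM, 9 members were higher in all PT WT libraries than in all BM WT libraries and 4 lower, against 14.9% and 7.97% of all tested genes. In MRP8-Bcl2 7 were higher and 9 lower, against 5.18% and 32.6%, and without library 9 the counts were 8 and 10, against 7.94% and 39%. By rank among the tested genes of a library, which does not depend on a common scale, 8 members stood higher in all PT WT libraries and 4 lower, against 12.3% and 12.5% of all genes. In MRP8-Bcl2 15 stood higher in rank and 3 lower, against 18.3% and 15.4%, and without library 9 the counts were 17 and 4, against 23.6% and 20.8%. Genes listed at 0 share the lowest rank, so ranks do depend on how many genes a library lists above 0. The mean of that number was lowest in PT Bcl2. Gla, Lipa, Npc1 and Ctsz were higher in rank in both genotypes, and Arsb and Glb1, the latter listed at 0 in PT Bcl2, were lower in both.

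The make-up of the lysosomal transcripts was then taken by itself, as the share of each gene in the summed TPM of the 39. Ctsd made up 9.06%, 18.1% and 10.6% of this sum in BM WT and 28.5% and 29.2% in libraries 10 and 11 of PT WT, whereas library 12 lay within the BM range. In MRP8-Bcl2 it made up 13.8%, 9.68% and 4.26% in BM and 28.4%, 38.9% and 25.4% in PT, groups that were apart. Tfeb made up 12.8% of the sum in library 7 and at most 1.90% in every other library. In WT 3 genes had a share that was higher in all PT libraries (Gla, Gaa and Lipa) and 7 a lower share. In MRP8-Bcl2 these counts were 7 and 13, and 8 and 16 without library 9. Gla and Lipa were higher in share in both genotypes, and Glb1, Gusb, Man2b1, Grn, Arsb and Atp6v1b2 were lower in both. Shares add up to a fixed total, so a rise of Ctsd lowers the share of the others.

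**Figure D3:**
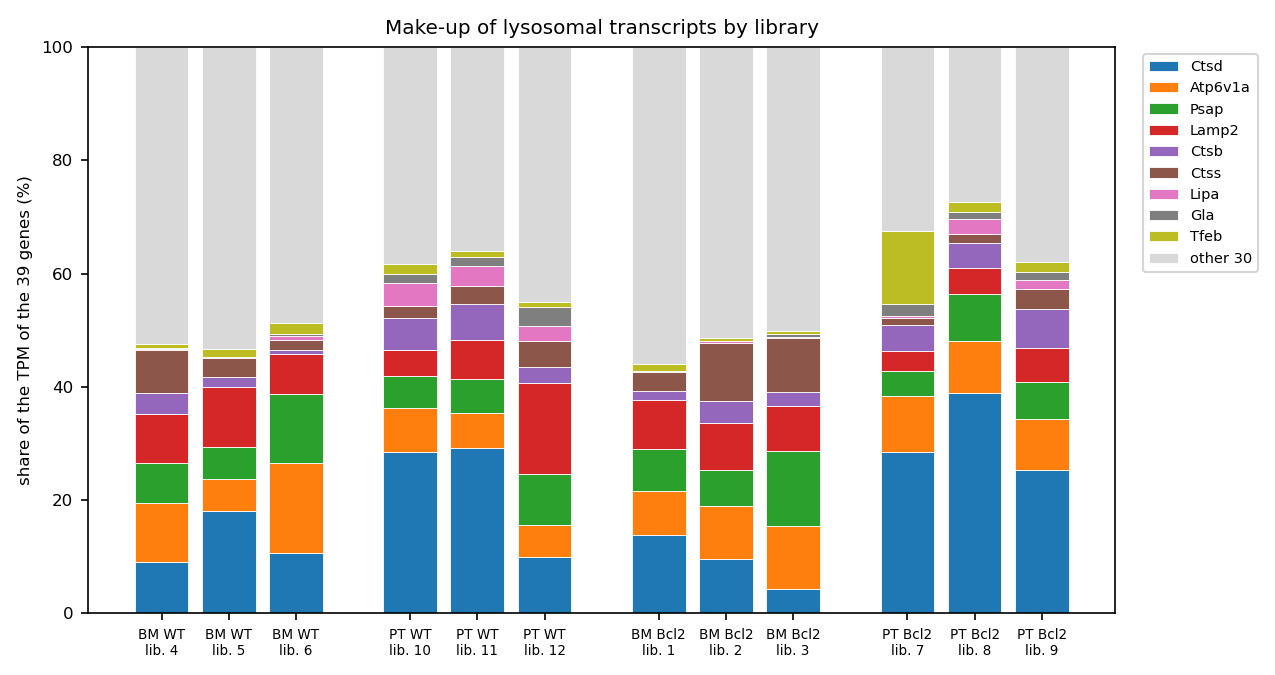
Share in percent of the summed TPM of the 39 lysosomal genes taken by 9 of them and by the other 30 together, for each of the 12 libraries. Ctsd takes 4.26% to 18.1% in the BM libraries and 25.4% to 38.9% in 5 of the 6 PT libraries, and library 12 of PT WT lies within the BM range.

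Together the 39 genes held 0.232% ± 0.024 of the TPM in WT marrow and 0.415% ± 0.154 in the WT peritoneum (SD, n = 3; two-sided exact permutation test, p = 0.1, the smallest that 3 against 3 libraries can give). In MRP8-Bcl2 they held 0.285% ± 0.079 in BM and 0.547% ± 0.329 in PT (exact permutation p = 0.2). A set of 108 genes whose transcripts contain 31 or more A or T in a row held 8.93% to 65.6% of the TPM of a library, and none of the 39 was among them. With these genes left out the shares were 0.284% ± 0.008, 0.790% ± 0.420, 0.340% ± 0.084 and 1.01% ± 0.092 for the WT marrow, WT peritoneum, MRP8-Bcl2 marrow and MRP8-Bcl2 peritoneum. Every PT library was then above every BM library of its genotype (exact permutation p = 0.1 in both). The ratio of the PT to the BM mean was 2.78 in WT and 2.96 in MRP8-Bcl2, against 1.79 and 1.91 with all genes. Library 7, at 0.923%, carried the PT Bcl2 mean with all genes, which was 0.358% without it, 1.26 times the BM Bcl2 mean. Without library 9 that mean was 0.663%, 2.32 times the BM Bcl2 mean. With the A or T run genes left out, the ratio was 2.83 without library 7 and 3.10 without library 9.

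**Figure D4:**
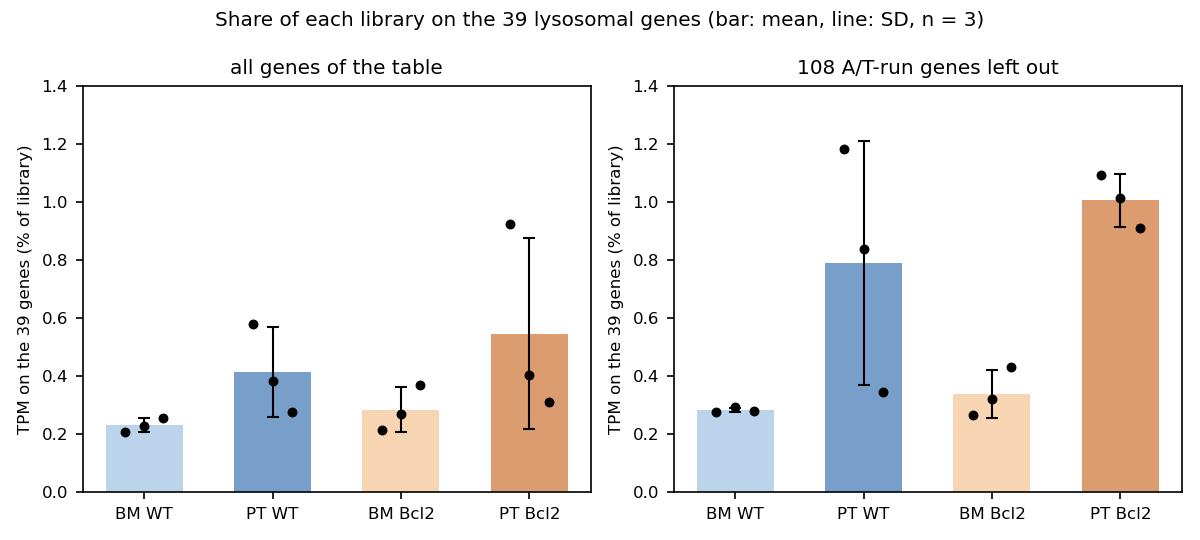
Share of the TPM of each library on the 39 lysosomal genes, with all genes of the table (left) and without 108 genes that carry long A or T runs (right); bars are means, lines the SD and points the 3 libraries. The PT Bcl2 libraries spread from 0.313% to 0.923% on the left and from 0.910% to 1.09% on the right.

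The second question was whether the transgene altered these genes. In the BM 0 of 39 members were called between MRP8-Bcl2 and WT in limma, where 0.0149% of all tested genes were called higher and 0.00743% lower. At an unadjusted p under 0.05, 2 were higher and 1 lower. Gaa measured 10.9 to 15.1 TPM in BM Bcl2 against 0.998 to 2.30 TPM in BM WT, a log2 difference of 2.45 ± 0.97 with an adjusted p of 0.673 in limma. Arsa was lower, at 0 to 0.981 TPM against 1.80 to 15.8 TPM, with a log2 difference of -1.92 ± 0.72 and an adjusted p of 0.673 in limma.

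In the PT, 0 of 39 members were called between the genotypes in limma, where 0% of all tested genes were called higher and 0.0297% lower. At an unadjusted p under 0.05, 0 were higher and 1 was lower. This was Ctsh, at 4.05 to 32.0 TPM in PT Bcl2 against 53.1 to 70.3 TPM in PT WT, with a log2 difference of -1.86 ± 0.76 and an adjusted p of 0.341 in limma. Without library 9 the count of calls was 0 again in limma. At an unadjusted p under 0.05, Tfeb and Npc1 were then higher, with log2 differences of 2.59 and 1.37. Ctsh and Atp6v1h were lower, at -2.34 and -2.24. In TPM, 0 members were higher in all PT Bcl2 libraries than in all PT WT libraries and 6 were lower, against 0.587% and 18.8% of all tested genes, and without library 9 these counts were 3 and 9, against 2.99% and 29.5%. In the BM these counts were 5 and 1, against 10% and 1.16%.

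The change from BM to PT was also compared between the genotypes in 1 interaction term, and 0 of 39 members were called in limma, against 0% of all tested genes higher and 0.0149% lower. At an unadjusted p under 0.05 the counts were 0 higher and 2 lower. These 2 were Ctsh, with a difference of -3.10 ± 1.08 in log2 fold change (adjusted p = 0.236 in limma), and Gaa, with -3.74 ± 1.37 (adjusted p = 0.246). The difference was -0.76 ± 1.08 for Gla, -0.60 ± 1.04 for Lipa and -0.33 ± 1.09 for Arsb, and differences of this width are not shown to be absent.

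Promoter E-boxes were set beside the changes as a description. The 14 members with CACGTG showed a median change of 1.07 (log2) in WT and 0.37 in MRP8-Bcl2, and the 19 members with a window and without CACGTG had 0.55 and 0.03. The MRP8-Bcl2 medians without library 9 were 0.49 and 0.08. With CACGTG, Gla was called higher in both genotypes, Ctsd higher and Glb1 lower in MRP8-Bcl2. Without it, Lipa was called higher and Arsb lower in both genotypes, and Tfeb was called higher and Gusb lower in MRP8-Bcl2. Among members with CACGTG, Glb1 was the only one called lower, a gene of low level that was listed at 0 in PT Bcl2. Others lay below 0 without a call, such as Arsa at -1.43 and Sgsh at -0.71 in WT. The call of Glb1 was lost without library 9 and after median centring. Whether the element had a part in these changes was not tested.

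The rest of the lysosomal system was taken from lists of further genes. Among 31 other hydrolases and cofactors, WT had 1 call higher and 1 lower (3.23% each, against 1.59% and 1.22% of all tested genes). MRP8-Bcl2 had 1 and 7 (3.23% and 22.6%, against 2.31% and 19.1%), and 0 and 6 without library 9 in limma. Galns, a sulfatase gene, measured 24.9, 12.4 and 12.5 TPM in BM WT and 1.73, 0.432 and 0.690 TPM in PT WT, a log2 fold change of -3.16 ± 0.69 (adjusted p = 0.0248 in limma). It was also called lower in MRP8-Bcl2, at -3.67 ± 0.69 with an adjusted p of 0.00361 in limma, and at -3.85 without library 9. The median of the list was 0.23 in WT and -0.75 in MRP8-Bcl2, against 0.22 and -1.02 for all tested genes.

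Of 29 further membrane proteins and transporters tested, 0 were called in WT in limma, and in MRP8-Bcl2 2 were called higher and 3 lower (6.90% and 10.3%, against 2.31% and 19.1% of all tested genes), and 1 and 2 without library 9, with Slc11a1 among those lost. The higher genes were Litaf at 2.24 ± 0.66 and the metal transporter gene Slc11a1 at 2.27 ± 0.74, and among the lower were the amino acid transporter gene Slc36a1 at -3.32 ± 0.68 and Abca2 at -2.72 ± 0.85. Their median was 0.83 in WT and -0.04 in MRP8-Bcl2. Of 18 further V-ATPase subunits and assembly factors tested, 0 were called in WT in limma and 1 higher and 4 lower in MRP8-Bcl2 (5.56% and 22.2%), with medians of 0.53 and -0.14. Without library 9 these counts were 0 and 4 in limma. Rogdi, at -5.11 ± 0.86, and Atp6v1g2, at -3.88 ± 0.85, had the smallest p values among these.

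Sorting proteins carry new hydrolases from the Golgi to lysosomes. Of 18 such genes tested, 0 were called higher in either genotype in limma, 1 lower in WT (5.56%, against 1.22% of all tested genes) and 3 lower in MRP8-Bcl2 (16.7%, against 19.1%), or 2 lower without library 9. The receptor gene Sort1 was called in both, from 92.2, 43.4 and 129 TPM in BM WT to 1.15, 12.8 and 6.79 TPM in PT WT, and from 73.2, 81.9 and 71.0 TPM in BM Bcl2 to 1.16, 1.86 and 6.08 TPM in PT Bcl2. Its log2 fold changes were -3.73 ± 0.75 (adjusted p = 0.0163 in limma) and -4.43 ± 0.75 (adjusted p = 0.00220). After median centring the MRP8-Bcl2 counts were 4 higher and 1 lower for the hydrolases and cofactors, 7 and 0 for the membrane proteins, 3 and 1 for the V-ATPase genes and 2 and 1 for the sorting genes, a setting tried on these lists after the data had been seen.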

How the data were processed

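Total RNA of sorted cells was amplified to cDNA and sequenced in pairs by the study, and the authors processed the reads with AltAnalyze at default settings. The aligner, its version and the genome build are not given in the sources used here. The deposited table holds log2 values of TPM + 1 per gene, which were turned back to TPM. TPM keeps no read totals, so depth per library is unknown. Columns were placed in groups by the header of a deposited marker table and carry no replicate number. A deposited abundance file with 2 per-sample columns (an expected count and TPM) matched no group and was not used. The study took both sites from every mouse, so BM and PT libraries of a genotype can share mice. The columns do not say which, the model has no term for the mouse, and p-values measure only the spread between these libraries.

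limma 3.58.1 in R 4.3.3 was fitted to log2(TPM + 1) of the 12 libraries in 1 model of 4 groups (lmFit, contrasts.fit, eBayes with a trend, 8 residual degrees of freedom), over 13456 genes (a minimum of 1 TPM, reached in 3 libraries or more). A fold change is on this scale and understates the change of low genes. A call needed a p under 0.05 after Benjamini-Hochberg adjustment and a 2-fold change, and the interaction needed the adjusted p alone. The fit was tested on simulated data. Exact permutation tests were two-sided (scipy 1.17.1). Alternatives were a pseudocount of 0.1, no filter or one at 5 TPM, median centring, quantile normalization, leaving out genes with runs of A or T, a fit of only the groups compared, no trend, other call rules, and leaving out each library. Lists, shares, promoter medians and counts of groups apart without library 9, and the share without library 7, were added after seeing the data. Gene positions are those of GENCODE M21 (GRCm38) and promoters those of RefSeq. Values in every library are given for called members and for up to 3 members of each role with the largest mean absolute log2 fold change. Of these, Sgsh, Arsa and Atp6v0c are given wholly or partly as ranges. Up to 4 genes of each further list were eligible to be named. Other genes, such as Tpp1, were named after their values were seen. The members and lists were chosen with earlier results of these data known. Some genes of the further lists are not reported here by name.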

Additional observations from a re-analysis of the deposited data

How the results depend on the processing

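Gla and Lipa were called higher in both genotypes under all 10 alternatives other than leaving out a single library, and no called value changed sign. Among these alternatives, the looser call rules (adjusted p alone, or unadjusted p with a 2-fold change) reuse the fit reported. Every gene called in that fit passes them. In WT, the count of members called lower, 1 in the fit reported, was 0 with a pseudocount of 0.1, without a filter, without genes of long A or T runs and in a fit of only the groups compared, and at an unadjusted p the counts were 6 higher and 3 lower. In MRP8-Bcl2, members called higher, 4 in the fit reported, numbered 14 with median centring, 7 with quantile normalization, 8 without genes of long A or T runs and 7 at an unadjusted p. Members called lower, 5 in the fit reported, numbered 3 without a filter, 0 with centring, 1 with quantile normalization, 2 without genes of long A or T runs and 2 in the fit of only the groups compared. At an unadjusted p the interaction gave 2 lower, MRP8-Bcl2 against WT gave 2 higher and 1 lower in BM and 1 lower in PT. Leaving out 1 library gave 0 to 3 higher and 0 to 1 lower in WT, 2 to 5 higher and 1 to 5 lower in MRP8-Bcl2, and 0 in all other comparisons. Without library 10, WT counts were 0 and 0, and without library 3 the MRP8-Bcl2 counts were 2 and 1. The TPM shares without genes of long A or T runs were 0.284% in BM WT, 0.790% in PT WT and 1.01% in PT Bcl2, and with all genes the PT Bcl2 share was 0.358% without library 7 and 0.663% without library 9. The cause of these shifts was not tested.

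Over all tested genes the scaling moved the split of calls in MRP8-Bcl2 from 311 higher and 2567 lower to 1636 and 467 with centring, 679 and 780 with quantile normalization and 543 and 1088 without genes of long A or T runs. In WT it moved from 214 and 164 to 112 and 197, 233 and 264, and 485 and 109. The fit of only the groups compared gave 101 higher and 78 lower in WT, 203 higher and 1903 lower in MRP8-Bcl2, and no filter gave 139 and 112 in WT. Centring moved the median of all genes in MRP8-Bcl2 from -1.02 to 0.57. The low or listed 0 values of Arsa, Sgsh and Glb1 and the lack of read totals limit what can be said of these genes. No paired analysis was possible because the columns carry no replicate numbers.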

Other observations

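Genes that dock the growth-regulating kinase complex mTORC1 on lysosomes were measured in the same libraries. They were listed together with genes of mTORC1 itself, of the TFEB family and of calcineurin and with Zkscan3. Of this list 19 genes passed the filter. In WT 1 was called higher in PT and 2 lower, and in MRP8-Bcl2 3 higher and 6 lower. The WT calls were 5.26% and 10.5% of the list, against 1.59% and 1.22% of all tested genes. For MRP8-Bcl2 they were 15.8% and 31.6%, against 2.31% and 19.1%. Without library 9, the MRP8-Bcl2 counts were 2 and 6, and after median centring they were 6 and 4. Fnip2, which codes for a partner of folliculin, measured 8.76, 12.4 and 4.33 TPM in BM WT and 214, 138 and 39.6 TPM in PT WT. Its log2 fold change was 3.59 ± 0.68 in WT (adjusted p = 0.0118 in limma) and 3.25 ± 0.68 in MRP8-Bcl2 (adjusted p = 0.00590), where the PT libraries reached 126 to 329 TPM. Lamtor2, a subunit gene of the Ragulator scaffold, measured 49.5, 32.0 and 17.9 TPM in BM WT and 3.90, 1.09 and 0.965 TPM in PT WT. It measured 61.8 to 71.8 TPM in BM Bcl2 and was listed at 0 in all 3 PT Bcl2 libraries. Lamtor4, of the same scaffold, was also listed at 0 there and was called lower in WT at -3.30 ± 0.81 (adjusted p = 0.0412 in limma). The subunit genes of calcineurin, Ppp3r1 and Ppp3cb, were called lower in MRP8-Bcl2, at -3.80 ± 0.70 and -4.60 ± 0.86. The median of the list was 0.35 in WT and -1.69 in MRP8-Bcl2, against 0.22 and -1.02 for all tested genes.

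Of 20 genes of autophagy tested, 2 were called higher and 0 lower in WT, and 3 higher and 1 lower in MRP8-Bcl2. The WT calls made up 10% and 0% of this list, those of MRP8-Bcl2 15% and 5%, beside the same shares of all tested genes as above. Without library 9, the MRP8-Bcl2 counts were 3 and 0 in limma, Wipi1 being lost, and after median centring they were 6 and 0. Sqstm1, the gene of the cargo receptor p62, was called higher in both. It measured 22.4, 19.3 and 23.7 TPM in BM WT and 211, 142 and 117 TPM in PT WT, and in MRP8-Bcl2 12.1, 29.0 and 38.3 TPM in BM and 89.7, 209 and 116 TPM in PT. The log2 fold changes were 2.75 ± 0.56 in WT (adjusted p = 0.0171 in limma) and 2.39 ± 0.56 in MRP8-Bcl2 (adjusted p = 0.00999). Tecpr1 was called higher in WT at 3.48 ± 0.80, and Rab7, Map1lc3b and Wipi1 were called in MRP8-Bcl2 at 1.75 ± 0.48, 3.35 ± 0.99 and -2.45 ± 0.71.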
